A study of Homo sapiens with 2 samples.

Results

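The miR-548 family is a large group of primate miRNAs that derive from copies of one transposable element. All array probes whose name contained hsa-miR-548, with any letter and either arm, were taken as the family. There were 29 such probes among 1273 human miRNA probes, and together they carried 33 miRNA names, since 3 probes named several members. The cells were H460, a human non-small cell lung cancer line kept in DMEM with fetal bovine serum. One culture had received vehicle and the other sulforaphane, an isothiocyanate of cruciferous vegetables, each for 48 hours. The sources used here give no dose. Each treatment was measured on 1 array, so there is no spread between samples, no test and no p-value. The arrays were miRCURY LNA arrays read in the Hy3 channel, and their number limits the precision of every value.

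A miRNA is cut from a hairpin by Drosha and Dicer, and one arm of the hairpin is loaded into Argonaute, where a short stretch near its 5′ end, the seed, pairs with messenger RNAs. The miR-548 hairpins come from MADE1, a short palindromic element related to the mariner DNA transposons. A transcript across such a palindrome folds back on itself, so many genomic copies can each give a hairpin, and the family has no single locus and no single shared promoter. Family members are distinguished by letters after the number.

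In RefSeq's gene table (GRCh38.p14) there were 73 MIR548 genes on 22 chromosomes. Of these, 47 lay within the bounds of a protein-coding gene, 4 within those of a long non-coding RNA gene alone and 22 within neither. Whether they lie in introns or exons was not analysed here. MIR548T lies within GALNT7, MIR548L within MRE11, MIR548N within DPY19L1, MIR548B within FAM184A, MIR548P within ST8SIA4 and MIR548W within HS3ST4.

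The hairpin of MIR548M, at chrX:95063141-95063226 on the minus strand, is shown because it makes the palindrome visible. Capitals mark mature miR-548m.
MIR548M hairpin: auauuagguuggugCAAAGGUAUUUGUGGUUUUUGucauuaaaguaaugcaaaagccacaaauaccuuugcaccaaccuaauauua
RNAfold placed 80 of its 86 bases in pairs (93.0%). The median over 1519 RefSeq human hairpins was 71.6%, and 99.5% of them were paired to a lower share. The probe for miR-548m read 0.529 after vehicle and 0.601 after sulforaphane, in the authors' normalized intensity.

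Of the 29 probes, 16 had a RefSeq mature sequence of exactly the same name. The following are shown because they include the brightest and dimmest probes of each arm among these 16, with the seed (bases 2 to 8) in capitals. The first 6 come from the 5′ arm and the last 6 from the 3′ arm.
miR-548t-5p: cAAAAGUGaucgugguuuuug
miR-548l: aAAAGUAUuugcggguuuuguc
miR-548n: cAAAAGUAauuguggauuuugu
miR-548b-5p: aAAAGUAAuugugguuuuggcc
miR-548w: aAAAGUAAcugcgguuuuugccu
miR-548y: aAAAGUAAucacuguuuuugcc
miR-548b-3p: cAAGAACCucaguugcuuuugu
miR-548u: cAAAGACUgcaauuacuuuugcg
miR-548c-3p: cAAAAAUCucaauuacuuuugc
miR-548o-3p: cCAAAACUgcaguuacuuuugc
miR-548g-3p: aAAACUGUaauuacuuuuguac
miR-548p: uAGCAAAAacugcaguuacuuu
These RefSeq sequences are on GRCh38.p14 at chr4:173268169-173268189 for miR-548t-5p, chr11:94466545-94466566 for miR-548l and chr5:100816498-100816519 for miR-548p. The 6 sequences of the 5′ arm open with AAAAGU, after 1 other base or none. Toward their 3′ ends, miR-548u, miR-548c-3p, miR-548o-3p and miR-548g-3p hold the reverse complement ACUUUU. miR-548p stops before its last letter, and miR-548b-3p does not hold it. Of the 16 sequences, 12 hold AAAAGU (8) or its reverse complement ACUUUU (4), against 8 of 980 other human sequences (0.816%). These letters were chosen after the sequences had been read. Sequences of the 5′ arm were also aligned, without gaps, to the reverse complements of those of the 3′ arm. Among the closest pairs were miR-548w and miR-548o-3p, which matched at 18 of 20 bases. The least alike, miR-548q and miR-548p, matched at 8 of 22.

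The 16 sequences carried 14 different seeds. AAAGUAA was the 1 seed held by several members, namely miR-548b-5p, miR-548w and miR-548y. Over the whole ungapped alignment, seed included, 28 of 120 pairs differed at up to 4 bases, and 2 pairs at up to 2. The closest pair was miR-548o-3p and miR-548p, with 1 difference over 19 aligned bases. Capture probes for close sequences may share targets, which was not tested, so the 29 probes are not independent measurements. The members were 21 to 23 bases long. Their median share of A and U was 63.6% (range 45.5 to 77.3), while the 980 others had quartiles of 40.9 and 59.1%.

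None of the 29 miR-548 probes was above background on either array. A probe was counted as above background when its normalized intensity exceeded a floor set on each array at the 95th percentile of its 143 viral miRNA probes. The floor was 6.44 with vehicle and 5.52 with sulforaphane. The normalized intensity is the foreground minus background intensity divided by 1 factor per array. Over all human miRNA probes, 14.3% passed it with vehicle (182 of 1273), 16.7% with sulforaphane (212) and 13.2% on both arrays (168). For the family the count was 0 of 29 in each case. All 7 negative control probes were below the floors too, and 8 viral probes were above it on each array. In H460 the family was therefore not detectable at these signals under either treatment, which does not show that it is absent. Since RNA came from whole cultures, fewer cells carrying a miRNA and less of it per cell cannot be told apart.

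The family stayed below a somewhat lower floor as well. At the 90th percentile of the viral probes, a floor of 3.54 with vehicle and 3.51 with sulforaphane, the family count was still 0 on both arrays, while 238 human probes (18.7%) passed on both. At the 85th percentile, 2 members (6.90%) passed with vehicle and 1 (3.45%) with sulforaphane, against 26.8% and 26.9% of other human probes. At the median of the viral probes, 7 members (24.1%) passed with vehicle and 13 (44.8%) with sulforaphane, against 56.8% and 63.2% of the 1244 other human probes.

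**Figure D1:**
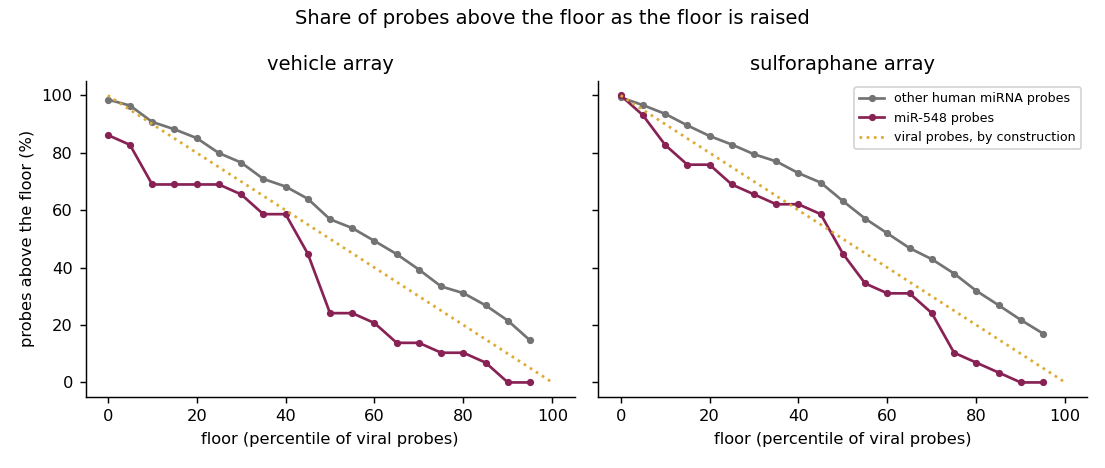
Share of probes above the floor (%, y) against the viral percentile used as floor (x), after vehicle (left) and sulforaphane (right), for miR-548 probes, other human miRNA probes and, as a dotted line, the viral probes that define the floor. From the 50th percentile upward the miR-548 line lies under the viral line on both arrays and reaches 0 at the 90th percentile.

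The brightest member was miR-548t-5p. It read 3.38 with vehicle (377 background-subtracted units) and 3.29 with sulforaphane (407.5 units), which is 52.5% and 59.6% of the floor of each array. Its reading was higher than that of 77.9% of other human probes with vehicle and of 77.2% with sulforaphane. On each array 16 of the 143 viral probes were brighter than it.

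Next in brightness was miR-548e, which read 2.61 with vehicle and 1.88 with sulforaphane. It was followed with vehicle by miR-548l at 2.10, which read 0.948 with sulforaphane. miR-548a-5p read 1.34 and 1.07. These 4 were the probes of the family with a vehicle reading above 1, and the other 25 read less. On the sulforaphane array the probe shared by miR-548aa and miR-548t-3p was among the 3 nearest to the floor, at 1.52, although it had read only 0.457 with vehicle. miR-548d-5p read 0.915 and 1.12, miR-548n read 0.919 and 1.02, and miR-548v read 0.780 and 1.125.

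At the other end stood miR-548p, at 0.0717 with vehicle (8 units) and 0.286 with sulforaphane (35.5 units). It was the dimmest of all 1273 human probes on the vehicle array. miR-548g-3p read 0.117 and 0.194, miR-548s read 0.121 and 0.310, and miR-548f read 0.135 and 0.298. The 7 negative controls had medians of 0.238 and 0.371. With vehicle miR-548p and miR-548g-3p read lower than the dimmest of these controls (0.121), and with sulforaphane miR-548g-3p and miR-548c-3p did (0.246). The medians of the family, 0.471 and 0.597, lay above those of the controls. Both miR-548t-5p and miR-548e read higher than the brightest control on each array (2.19 and 1.49). Readings under 10% of the floor were found for 22 of the 29 members with vehicle and for 12 with sulforaphane. The brightest of these were miR-548a-3p with vehicle (9.69% of the floor) and miR-548b-3p with sulforaphane (9.50%). They read higher than 42.9% and 28.8% of other human probes, so such readings occurred outside the family too, though in a smaller share of probes.

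**Figure D2:**
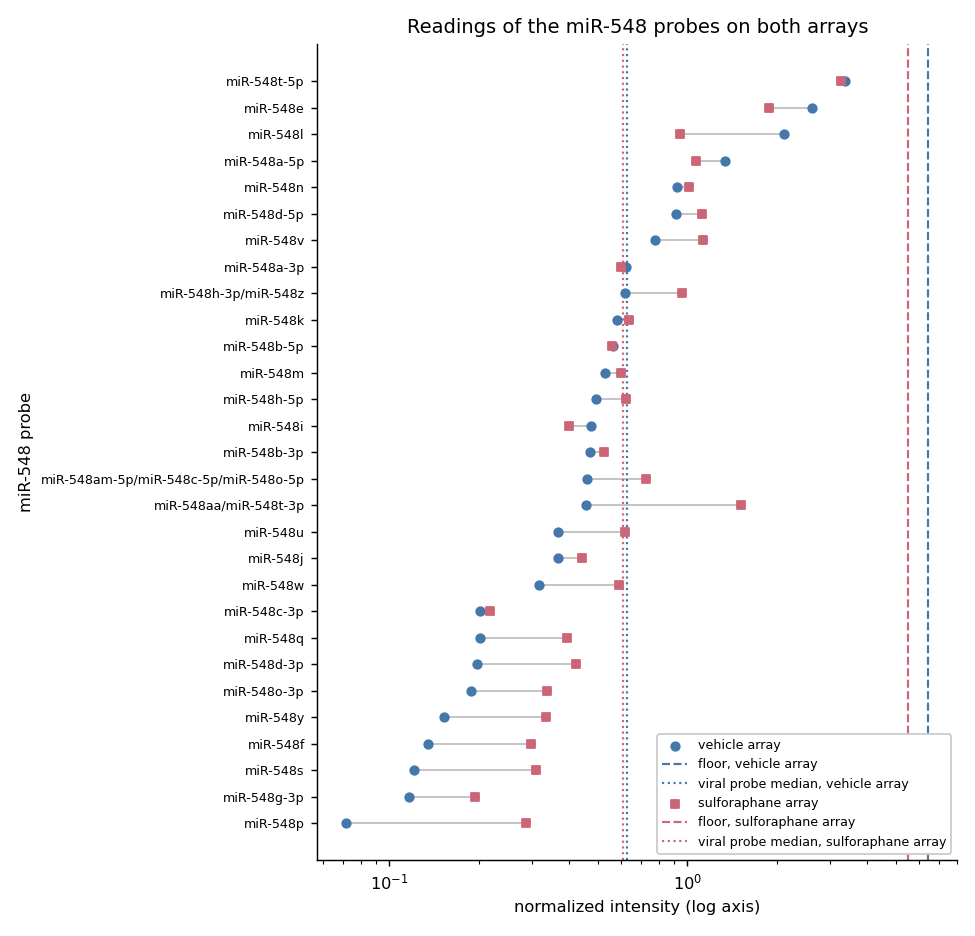
Normalized intensity (x, log axis) of each of the 29 miR-548 probes (y) on the vehicle array (circles) and the sulforaphane array (squares), joined by a line, with the floor of each array dashed and the viral median dotted. All points lie left of the floors of 6.44 and 5.52, and the brightest probe, miR-548t-5p, is at 3.38 and 3.29.

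As a group the family was dimmer than other human probes and, with vehicle, dimmer than the viral probes. The median over the 29 members was 0.471 with vehicle (52.5 units), against 0.791 for the 1244 other human probes and 0.628 for the viral probes. With sulforaphane the medians were 0.597 (74 units) for the family, 0.812 for other human probes and 0.609 for viral probes. The family's upper quartile was 0.623 with vehicle and 0.960 with sulforaphane, well under the 2.81 and 2.61 of other human probes. Because capture probes bind their targets with unequal strength, these medians describe probes and give no order of abundance.

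**Figure D3:**
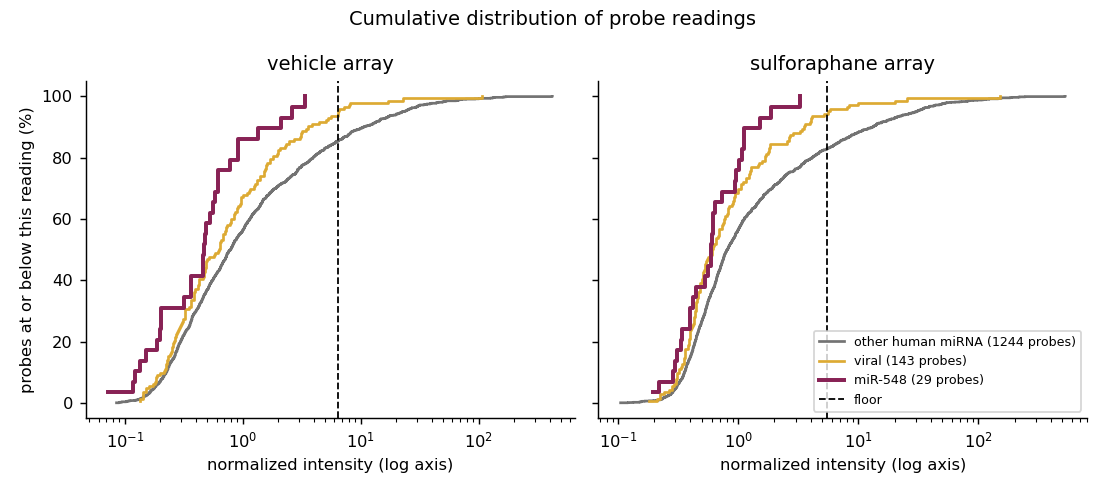
Percent of probes at or below a reading (y) against normalized intensity (x, log axis), for 29 miR-548, 1244 other human and 143 viral probes, on each array. The miR-548 curve reaches its end at 3.38 with vehicle and 3.29 with sulforaphane, left of the dashed floor, while other human probes continue to 422 and 528.

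Since the share of A and U was high in the family, its readings were set beside other probes of like composition. Among 157 other human probes whose RefSeq sequence had 60 to 70% A and U, 18.5% were above the floor with vehicle and 21.7% with sulforaphane, and their median readings were 0.735 and 0.762. The 10 family probes in that range had medians of 0.448 and 0.595. Among 30 others with 70% or more, 5 were above the floor with vehicle and 4 with sulforaphane. These comparisons cover the 16 members with a sequence, and the part of composition in the family's readings was not tested.

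Among the members whose arm could be assigned, 5′ arm probes had higher medians than 3′ arm probes. Arms were taken from the name or, for members named without an arm, from the closer match to miR-548b-5p or miR-548c-3p. The 13 probes of the 5′ arm had a median of 0.561 with vehicle (range 0.152 to 3.38) and 0.637 with sulforaphane (0.335 to 3.29). The 11 of the 3′ arm had medians of 0.202 (0.0717 to 0.623) and 0.423 (0.194 to 1.52). The ranges overlapped on both arrays. Another 5 members had neither an arm in the name nor a RefSeq sequence of that name and could not be assigned. These were miR-548e, miR-548f, miR-548i, miR-548j and miR-548v. They read 0.135 to 2.61 with vehicle and 0.298 to 1.88 with sulforaphane. The brightest of them, miR-548e, read higher on both arrays than every probe assigned to the 3′ arm. The contrast therefore covers the assigned probes only. This split was chosen after the readings had been seen, and all of them lie under the floor.

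**Figure D4:**
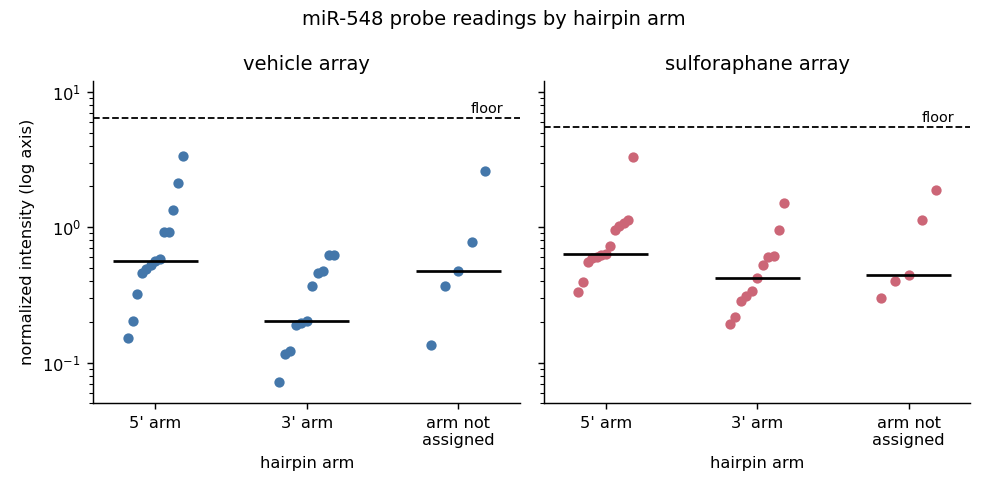
Normalized intensity (y, log axis) of miR-548 probes by hairpin arm after vehicle (left) and sulforaphane (right). Each point is a probe, bars are medians and the dashed line is the floor. The medians were 0.561 and 0.202 for the 5′ and 3′ arms with vehicle, and 0.637 and 0.423 with sulforaphane.

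Where the array held both arms of a miRNA, the 5′ probe was brighter in 6 of 7 pairs on each array. The pairs of miR-548c and miR-548o share the probe that names miR-548am-5p, miR-548c-5p and miR-548o-5p, which read 0.462 and 0.726. Against it, miR-548c-3p read 0.202 and 0.218, and miR-548o-3p read 0.188 and 0.339. For miR-548d the arms read 0.915 and 0.197 with vehicle and 1.12 and 0.423 with sulforaphane, 5′ arm given before 3′ arm. For miR-548b they lay close together, at 0.561 and 0.471 with vehicle and 0.556 and 0.524 with sulforaphane. The exception was miR-548h, whose 5′ probe read 0.493 and 0.621 while the 3′ probe, shared with miR-548z, read 0.619 and 0.960.

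Readings were also set beside sequence likeness, for the 16 members with a RefSeq sequence only. All readings lie below the floor, and probes bind with unequal strength. Among these 16, the 3 with the seed AAAGUAA ranged from 0.152 (miR-548y) to 0.561 (miR-548b-5p) with vehicle. With sulforaphane they ranged from 0.335 to 0.589. The seeds of the other members were not read. miR-548t-5p differs from miR-548n at 3 of 21 aligned bases. The first read 3.38 and 3.29 and the second 0.919 and 1.02. The closest pair, miR-548o-3p and miR-548p, read 0.188 and 0.0717 with vehicle and 0.339 and 0.286 with sulforaphane.

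The series set miRNA levels after sulforaphane beside those after vehicle. For this family no fold can be given, because every member was below the floor on both arrays. Among the 168 human probes above it on both, 3.57% were higher after sulforaphane by 2-fold or more, and 1.19% were lower by as much. No miR-548 probe entered that comparison, so its count there is 0 of 0. Over the 168 probes the median log2 ratio, sulforaphane over vehicle, was 0.38, and 82.7% had a ratio above 1. The 41 spike-in control probes above the floor on both arrays had a median of 0.68. Ratios above 1 were thus common among bright probes in the authors' scaling, and the reason was not tested.

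The ratio of the readings themselves, sulforaphane over vehicle, is given as a description of dim spots and not as a change of the miRNAs. Its median log2 value over the 29 members was 0.33, with quartiles of 0.11 and 0.89, and 22 members had a ratio above 1. Among the 1018 other human probes below the floor on both arrays the median was 0.37, with quartiles of -0.04 and 0.74, and 72.6% had a ratio above 1. The 134 viral probes below the floor had a median of 0.22. The family thus lay close to other undetected human probes. Its SD between probes was 0.68 and that of the other undetected probes 0.67.

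High ratios lay at the dimmest spots, apart from the probe for miR-548aa and miR-548t-3p. The ratio was at least 2 for 6 members (20.7%), against 11.5% of the other undetected human probes, and at most 0.5 for 1 member (3.45%), against 4.81%. The 6 included miR-548p, with the highest log2 ratio at 1.996, miR-548s at 1.36 and miR-548f at 1.15. For the 9 members with a vehicle reading under 0.25, the intensity was 8 to 22.5 units with vehicle and 24 to 52.5 with sulforaphane, a gain of 4.5 to 30.5 units. Over all 29 members the median gain was 22 units, and over the other undetected human probes it was 23. The median local background of all probes was 41 units with vehicle and 61 with sulforaphane, and its part in these ratios was not tested.

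Set against other probes of the same brightness, the family, like the others, had its highest ratios at the dimmest readings. Where the geometric mean of both readings was under 0.25, the 6 members had a median log2 ratio of 1.14 and the 69 other undetected probes 0.85. Between 0.25 and 0.5, the 8 members had 0.80 and the 342 others 0.63. Between 0.5 and 1, the 10 members had 0.26 and the 303 others 0.19. The 3 members between 1 and 2 had -0.32, against 0.12 for 172 others, and the 2 between 2 and 4 had -0.26 against 0.26 for 109 others. In both of these bands the family's values lay within the range of the others.

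**Figure D5:**
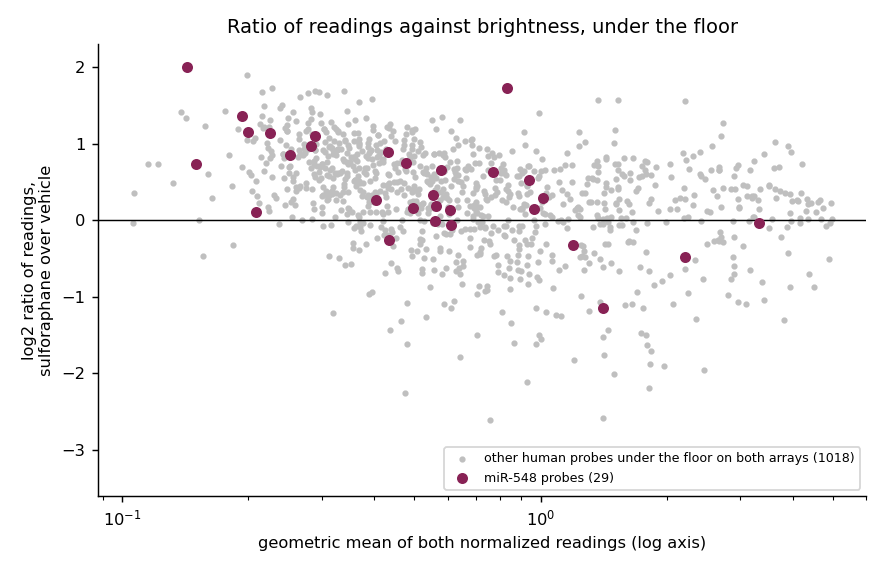
Log2 ratio of readings, sulforaphane over vehicle (y), against the geometric mean of both normalized readings (x, log axis), for the 29 miR-548 probes and the 1018 other human probes below the floor on both arrays. Ratios are highest at the dimmest readings in both sets, and the isolated member at the upper centre is the probe for miR-548aa and miR-548t-3p.

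The ratios of 2 members were higher than those of all other undetected human probes in their range of brightness. One was miR-548p, at 1.996 against up to 1.89 among the 69 others under 0.25. For the probe of miR-548aa and miR-548t-3p, 0.457 and 1.52 gave a log2 ratio of 1.73 between readings at 7.11% and 27.5% of the floors. Among the 303 other undetected human probes between 0.5 and 1, log2 ratios went up to 1.40. The opposite arm, miR-548t-5p, had a log2 ratio of -0.04. The lowest ratio of the family was that of miR-548l, -1.15, between readings at 32.7% and 17.2% of the floors. It lay within the range of the 172 other undetected probes between 1 and 2, which went down to -2.58. All of these are differences between 2 spots below the floor.

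Some other miRNAs that derive from transposable elements were above the floor. A list of such families outside miR-548 (miR-28, miR-95 and miR-151 from LINE-2, miR-340 from a mariner-type element, miR-513 and miR-652 from MER91C, miR-1302 from MER53 and others) had 17 probes. Of these, 4 (23.5%) were above the floor on both arrays and 1 more, miR-340-3p, on the sulforaphane array alone. Over all human probes, 13.2% passed on both arrays and 16.7% with sulforaphane. The 4 were miR-340-5p (22.2 and 31.6), miR-151a-5p (12.04 and 13.97), miR-513a-5p (11.6 and 11.0) and miR-151a-3p (7.88 and 11.2). Their log2 ratios ran from -0.09 to 0.51, so none reached 2-fold. The list's median reading was 2.01 with vehicle and 1.98 with sulforaphane, against 0.471 and 0.597 for miR-548.

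The other miRNAs of MADE1 origin on the array, miR-570-3p and miR-603, were below the floor as well. Their sequences are shown beside that of miR-559, which is not named as a member. It shares the seed AAAGUAA with 3 of the 16 members that had a RefSeq sequence.
miR-570-3p: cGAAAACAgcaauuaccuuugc
miR-603: cACACACUgcaauuacuuuugc
miR-559: uAAAGUAAauaugcaccaaaa
The readings of miR-570-3p were 1.93 and 0.448, vehicle before sulforaphane. Those of miR-603 were 0.161 and 0.310. Both end like the 3′ arm members of miR-548. miR-559 was above the floor with vehicle (8.95) and below it with sulforaphane (3.87), so it was at least 1.62-fold lower against the floor of the sulforaphane array. It and miR-1323 were chosen after their values were seen. miR-1323, which shares the seed CAAAACU with miR-548o-3p, read 1.02 and 0.544.

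Marker miRNAs were read against the same floors. Of 8 epithelial or carcinoma miRNAs, 2 passed on both arrays, miR-21-5p (93.5 and 122) and miR-31-5p (23.7 and 22.7). The miR-200 family members miR-200a-3p, miR-200b-3p, miR-200c-3p, miR-141-3p and miR-429, which mark epithelial cells, were below the floor on both. Of 8 blood and immune miRNAs, 0 passed, with highest readings of 2.02 and 2.44. Of 4 muscle miRNAs, miR-206 passed with vehicle alone (6.61 and 1.80), and 2 of 3 neuronal ones passed with sulforaphane alone, namely miR-128 (3.91 and 5.52) and miR-9-5p (5.78 and 6.46). The liver miRNA miR-122-5p did not pass (1.74 and 1.14).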

How the data were processed

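Total RNA of 2 H460 cultures was labelled with Hy3 and hybridised to 1 array each, per the labels' protocols. The deposited workbook gives, per the file headers, foreground intensity, foreground minus background intensity, a normalized value and a fold change. The authors' normalized value is a ratio, the background-subtracted intensity divided by 111.5 (vehicle) or 124 (sulforaphane) for each of 2661 probes. The sources used here give neither the background method nor the scanner. The series table held the same values.

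From these, the floor (95th percentile of the viral probes), counts, medians and log2 ratios were computed with nothing added before the logarithm. With 1 array per group no test was made. By rule, the text names the 5 brightest members, the 3 nearest each floor, their other arms, their seed and near-sequence matches, miR-570-3p and miR-603. The other members described, such as the dimmest, were picked after their values were seen. The planned ratio over detected members had no value, and the ratio of all readings was added instead. The family, the lists and these rules were chosen with earlier results of these data known. RefSeq sequences (GRCh38.p14) were matched by exact name for 16 of 29 member probes and 980 of 1244 others. Tools were Python 3.11.15, numpy 2.4.6, pandas 2.3.3, limma 3.58.1 in R 4.3.3 and RNAfold 2.7.2. Floor and ratio calls were tested on simulated arrays. The changes there were large and planted in bright probes outside the family, so that test does not cover readings under the floor. Other floors, scalings and size rules were tried.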

Additional observations from a re-analysis of the deposited data

How the results depend on the processing

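The counts of 0 detected members, on either array or both, held with a floor at the 90th percentile of the viral probes and on foreground intensities. Floors at the 99th percentile and the maximum of the viral probes are higher than the main floor, so they could only give 0. With the floor at the median of all probes, 7 members passed with vehicle, 9 with sulforaphane and 7 on both, where 43.7% of all human probes passed on both. With the floor at the viral median, added after the data were seen, the counts were 7, 13 and 7, against 52.2% of human probes on both. In both cases 1 of the 7 differed at least 2-fold, and their median log2 ratio was -0.04. At the main floor that median could not be computed, and a size rule of 1.5-fold had no detected member to call. Under the 7 other scalings no member was above the floor. Scaling by 1 constant per array moves the floor with the readings. Quantile normalization keeps the order of readings within an array, and on each array 16 viral probes were brighter than the brightest member. Only cyclic loess normalization could therefore have changed that count. Over all 29 readings (an addition made after the data were seen) the median log2 ratio of 0.33 was 0.49 without normalization. It was 0.12 after quantile and 0.039 after cyclic loess normalization, and 0.024 after scaling by detected miRNAs. It turned to -0.013 with summed intensity, -0.062 with other small RNAs, -0.37 with spike-in probes and -0.18 with the floor added. The family's median minus that of the other undetected human probes was 0.03 after quantile and after cyclic loess normalization. It was -0.03 under the other scalings, which use 1 constant per array and cannot change it. Without background subtraction, median brightness was 94.5 units with vehicle and 125 with sulforaphane. No paired analysis was possible because the labels give no replicate numbers and each group held 1 array.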
